A study of Mus musculus with 2 samples.

Results

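Cytosolic ribosomal protein genes were examined in mouse blood-forming (haematopoietic) stem cells, the source of all blood lineages, from mice lacking Wip1 and of wild-type mice, both 3 months old. Wip1 is a p53-induced phosphatase encoded by Ppm1d. There was 1 Affymetrix array per genotype, hybridised with labelled RNA made from total RNA. Each value is the summarised intensity of a probe set, a group of short probes against 1 transcript or several. The labels do not name the knockout allele, the strain, the number of animals pooled or the sort that defined the stem cells. The members are genes, found through all probe sets whose only listed gene is a ribosomal protein gene by symbol (Rpl or Rps and a number, Rpsa, Rplp0, Rplp1 or Rplp2, without the Rps6k kinases and pseudogenes). The rule found 106 of 45037 probe sets, which stand for 50 of 18193 genes. Of these, 22 genes belong to the large subunit and 21 to the small subunit. A further 6 are paralogues whose symbol ends in l or in l and a digit, and Rps19bp1 encodes a binding partner of Rps19 rather than a ribosomal protein. Rplp1 had no probe set that lists it alone.

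The cytosolic ribosome joins a small subunit, which reads the messenger RNA, to a large subunit, which makes the peptide bond. Each subunit holds many proteins that are needed in equal number, and their messenger RNAs are among the most abundant of a cell. Their translation is controlled together by the mTOR pathway through a stretch of pyrimidines at the 5' end of the messenger, the TOP motif. In blood, loss of 1 copy of several of these genes causes Diamond-Blackfan anaemia, and free ribosomal proteins such as Rpl5 and Rpl11 bind the ubiquitin ligase Mdm2 and stabilise p53, the pathway that Wip1 restrains.

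No test across arrays can be made with 1 array per genotype, and no p-value is given. Differences are log2 knockout minus wild type, after the arrays were centred on the median difference of all detected gene probe sets. The floor was the median of each array (25.9 in the knockout and 25.2 in the wild type), and a probe set counted as detected with 1 array or both above it. Of the 106 member probe sets, 95 were detected and 11 were below the floor on both arrays. Both probe sets of Ppm1d were alike in the arrays (160 against 167 and 59.0 against 55.6, knockout first), and whether they cover the deleted part is not known here. Of 10 stem cell markers fixed for the check, 8 had a probe set of their own and all 8 were detected, 5 above 0 and 3 below 0. They ran from Hlf (1270 against 788, 0.70) to Slamf1 (144 against 230, -0.66), and their summed intensities were 7207 in the knockout and 5691 in the wild type. Of the other lineages, 2 of 4 erythroid and 2 of 3 T cell markers were below the floor. All 4 B cell markers and all 6 neutrophil and monocyte markers were above it, as were 11440 of all 18193 genes on 1 array or both. Several were near it, namely Ms4a1 (29.7 against 30.6), Pax5 (37.2 on both arrays), Cd79a (46.0 against 38.6) and Cd14 (30.6 against 31.7). So were the detected erythroid genes Slc4a1 (40.1 against 28.7) and Klf1 (39.8 against 48.7), while the B cell gene Cd79b read 173 against 146. The neutrophil and monocyte markers had summed intensities of 5626 and 5411, mostly from S100a8 and S100a9. Among them Csf1r, a monocyte receptor gene, was at 770 and 294 (1.40) and the neutrophil elastase gene Elane at 123 and 172 (-0.48). The samples also differed in Xist (3778 against 6228 in its brightest probe set) and in the Y-linked Eif2s3y (149 against 31.8). The part of cell makeup and of sex in the values below was not tested, and in bulk RNA a smaller number of cells of a type and less RNA per cell cannot be told apart.

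The start regions of these genes were searched for short stretches of letters, among them runs of pyrimidines. The window searched was wider than the 5' end of the messenger, so a run in it need not be a TOP motif. RefSeq start sites (build GRCm38.p6) were found for 38 of the 43 genes of the large and small subunit. An unbroken run of at least 8 C or T letters on the transcribed strand, between 20 bases before and 50 bases after a start, was present in 29 of the 38 (76.3%), against 27.8% of 14368 genes on the array with a start site. The letters CCGGAAG, the core of ETS factor sites, occurred on either strand in the 300 bases around a start in 19 of 38, against 15.0% of all genes. The TATA box letters TATAAA, searched on both strands, occurred in 5 (13.2%), against 11.5%. These are matches of letters, not measured sites. The 30 bases around the start, from 15 bases before it, are printed 5' to 3' for Rps27l, Rps27, Rps6 and Rpl22l1, whose values are described below, and for Rpl35, Rplp2 and Rpl38 as examples chosen after their sequences were seen. Capitals mark the longest run of C and T in each window.
Rps27l, first start (chr9:66946071-66946100, plus strand): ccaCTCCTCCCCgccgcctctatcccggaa
Rps27l, second start (chr9:66946398-66946427, plus strand): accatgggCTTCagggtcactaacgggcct
Rps27 (chr3:90213634-90213663, minus strand): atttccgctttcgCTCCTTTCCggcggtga
Rps6 (chr4:86857353-86857382, minus strand): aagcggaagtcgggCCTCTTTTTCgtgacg
Rpl22l1 (chr3:28805493-28805522, plus strand): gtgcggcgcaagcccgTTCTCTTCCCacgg
Rpl35 (chr2:39005117-39005146, minus strand): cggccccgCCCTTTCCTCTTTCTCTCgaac
Rplp2 (chr7:141447636-141447665, plus strand): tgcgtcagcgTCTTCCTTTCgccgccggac
Rpl38 (chr11:114668565-114668594, plus strand): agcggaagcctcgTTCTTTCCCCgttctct
In Rps27 and Rps6 the run spans the annotated start. The run in the first window of Rps27l ends before the start, and the second window holds a run of only 4 letters.

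Ribosomal protein genes had nearly equal intensities on both arrays. Of the 43 genes of the large and small subunit, 42 were detected, and each was represented by its brightest probe set. None was at least 1.5-fold higher, against 2.28% of 11440 detected genes, and none at least 1.5-fold lower, against 1.57%. The median of the 42 differences was -0.00085 and their SD 0.10, where all detected genes had a median of -0.0031 and an SD of 0.28. A total of 36 of the 42 genes (85.7%) differed by less than 0.1 on the log2 scale, against 35.3% of all detected genes. There were 19 genes above 0 and 23 below 0, and this split moved both ways with the processing. Below 0 were 11 of 42 after loess normalization and 13 after quantile normalization. With no centring, with the floor at the 25th percentile or with an offset, 27 of 42 were below 0.

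**Figure D1:**
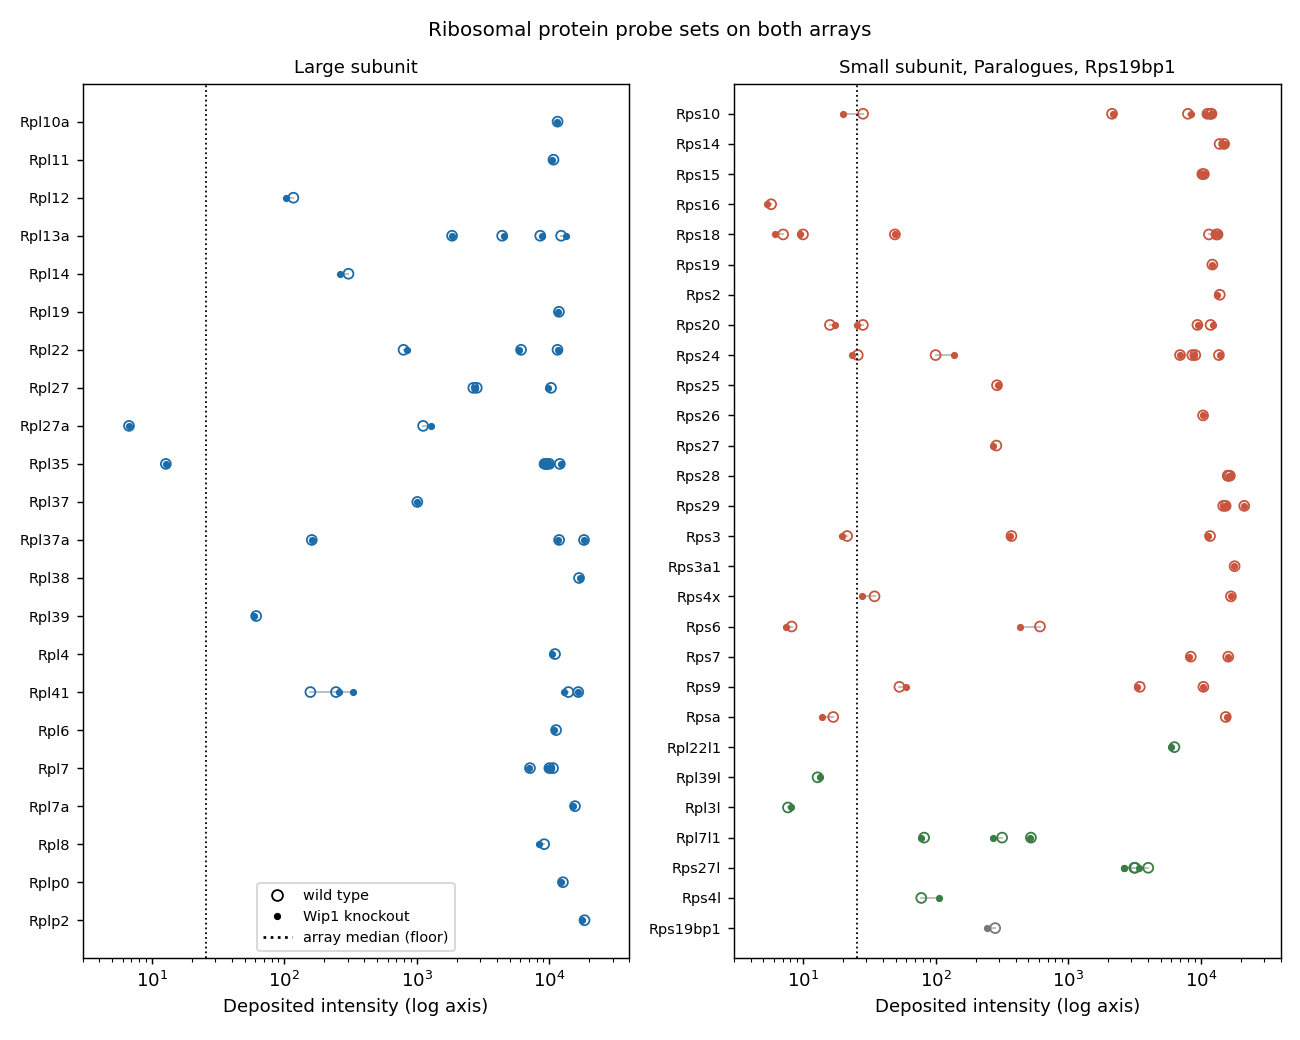
Deposited intensity (log axis) of each of the 106 member probe sets, by gene, in wild type (open circles) and Wip1 knockout (filled circles), with a grey line joining both and a dotted line at the array median of about 25. Most probe sets lie above 8000 with the circles on top of each other, and the widest gaps, such as those of Rpl41 and Rps6, belong to probe sets under 1000.

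How bright a probe set is depends on its own probes as well as on the transcript, so intensities order no genes here. They do separate the probe sets of these genes into bright and dim ones, and the differences followed that split, which was made at a mean intensity of 1000 after the values were seen. The 68 bright probe sets, from 36 genes, differed by -0.11 to 0.20, with an SD of 0.05. None of them reached 1.2-fold in either direction, against 17.8% of all bright gene probe sets on the array. The 18 dim but detected probe sets, from 16 genes, ranged from -0.49 to 0.72, with an SD of 0.29, and 5 of them were past 1.2-fold. Other genes' dim probe sets had the same spread, with an SD of 0.29 over 18511, of which 5192 were past 1.2-fold. Of the bright probe sets 7 were of the plain _at class, against 14 of the 18 dim ones; the other classes (_a_at, _s_at and _x_at) are those whose probes can match several transcripts.

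**Figure D2:**
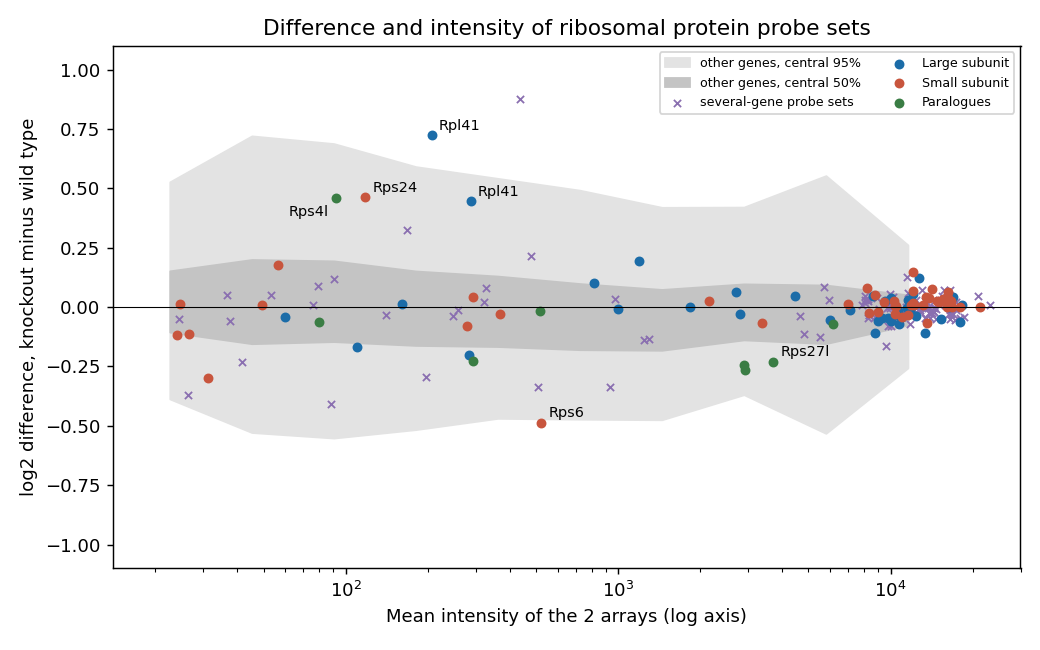
Log2 difference (knockout minus wild type) of each detected ribosomal protein probe set against its mean intensity on both arrays (log axis), for large subunit genes, small subunit genes, paralogues and probe sets that list several genes (crosses). The shaded bands are the central 50% and 95% of all other gene probe sets in bins of doubling intensity. Bright members crowd around 0, and those past 0.4 in size are all dim.

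Of the 200 brightest probe sets, 57 were members and a further 74 list a ribosomal protein gene together with other genes, with the same counts on both arrays. The 200 highest values of one array, taken rank by rank, differed from those of the other by at most 0.07 on the log2 scale. The sources used here do not say how the arrays were scaled to each other, so a shift common to all ribosomal protein messages and its removal by scaling cannot be told apart from no shift. Among probe sets with a mean intensity of at least 8000, the 57 of large and small subunit genes had an SD of 0.05, against 0.13 for the 34 of other genes (range -0.28 to 0.30). Identical values on both arrays occurred in 5 of 106 member probe sets (4.72%), against 5.63% of all probe sets. One of them was Rps19, the gene most often mutated in Diamond-Blackfan anaemia, at 12237 on both arrays.

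Large subunit genes had a median of -0.025 over 22 genes, with 6 above 0 and 16 below 0, and the median was above 0 after loess (0.022), after quantile normalization (0.016) and with the floor at the 75th percentile (0.00046). Rplp0, which anchors the stalk that recruits translation factors, was at 12218 in the knockout and 12644 in the wild type (-0.04). Its stalk partner Rplp2 was at 17495 and 18407 (-0.06). Among the probe sets that list 1 gene of this subunit, those of Rpl37a, at 18235 on both arrays, and Rpl38 (17105 against 16725) were bright too, which ranks probe sets and not messages. The p53-linked gene Rpl11 was at 10537 and 10733 (-0.02). Rpl10a (11417 against 11520) and Rpl19 (11687 against 11797) differed by less than 0.01 on the log2 scale.

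The large subunit genes with the lowest values were Rpl14 (263 in the knockout against 304 in the wild type, -0.20), Rpl12 (103 against 117, -0.17), Rpl8 (8397 against 9131, -0.11) and Rpl4 (10416 against 11016, -0.07). The first pair was measured only by a dim probe set of its own. At the other end stood Rpl27a (1266 against 1113, 0.20), by its only detected probe set that lists no other gene, and Rpl13a (13261 against 12257, 0.12). A brighter probe set that lists Rpl27a with 4 predicted genes read 12789 against 12974 (-0.01). Rpl13a encodes a protein also known for silencing inflammatory messages, and its other probe sets lay at 0.05, 0.05 and -0.0012. Rpl35 (0.05), Rpl38 (0.04), known for its part in translating Hox messages, and Rpl22 (0.03) followed. Knockout and wild type thus differed by at most 1.15-fold among these genes in either direction.

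Small subunit genes had a median of 0.0032 over 20 genes, with 13 above 0 and 7 below 0. This median was 0.051 after loess and below 0 with no centring (-0.0069), the floor at the 25th percentile (-0.0012), an offset (-0.0025) or plain _at probe sets only (-0.030). The large subunit median lay lower by 0.028 on the log2 scale, a gap that 1 array per genotype gives no error for. Rpsa, which encodes a ribosomal protein also known as the laminin receptor, was at 15675 in the knockout and 15446 in the wild type (0.03). Rps20 was the highest, at 12343 against 11873 (0.07), followed by Rps18, Rps25 and Rps24 at 0.04 each. The value of Rps25 came from a dim probe set (296 against 290). A bright one that lists Rps25 with other genes read 8140 against 8459 (-0.05). Bright probe sets that list 1 gene included those of Rps29 (21145 against 21305) and Rps3a1 (17917 against 18013), which differed by less than 0.01 on the log2 scale. Rps6 stood apart at -0.49. Next came Rps27 (270 against 287, -0.08), Rps2 (13193 against 13921, -0.07), Rps3 (11404 against 11755, -0.03) and Rps15 (10267 against 10558, -0.03). Within 0.1 of 0 on the log2 scale lay 19 of the 20 genes, all but Rps6.

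**Figure D3:**
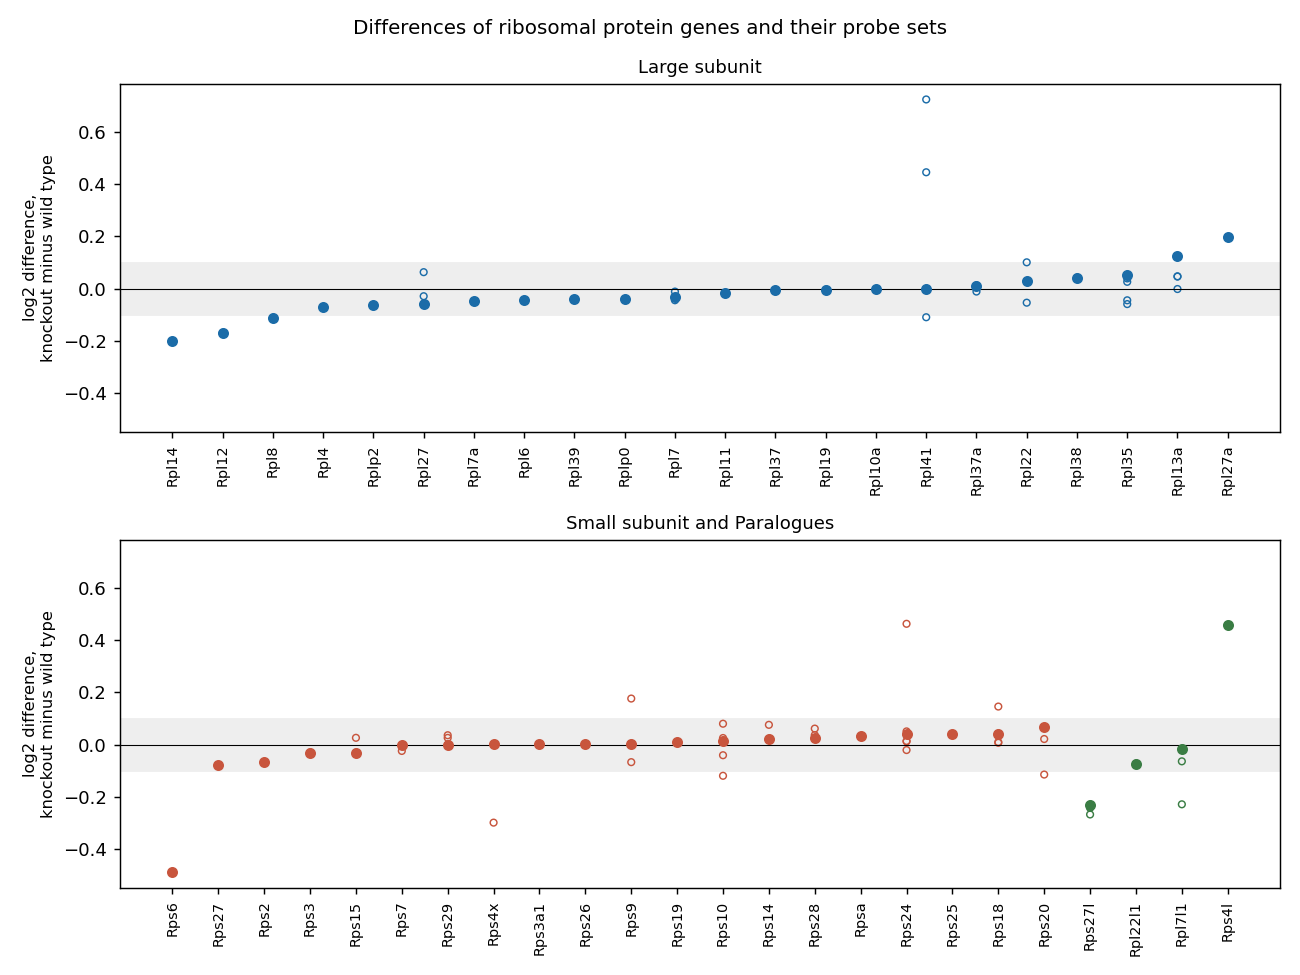
Log2 difference (knockout minus wild type) of each detected gene by its brightest probe set (filled) and of its other detected probe sets (open), for large subunit genes above, and small subunit genes and paralogues (green) below. The grey band marks differences under 0.1, which holds 36 of 42 subunit genes. Rps6, Rps4l, the dim probe sets of Rpl41 and Rps4x and the brighter dim probe set of Rps24 lie far outside it.

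Rps6, the subunit protein phosphorylated downstream of mTOR, had the largest difference of any subunit gene. Its only detected probe set of its own was at 434 in the knockout and 612 in the wild type. That value lay just outside the central 95% of 1531 other gene probe sets in its bin of intensity (-0.47 to 0.49). A further 8 detected probe sets list Rps6 with its pseudogene Rps6-ps4, and they gave a graded picture. The 4 with intensities of 14050 or more differed by -0.05 to 0.0075, among them the brightest probe set of both arrays (23137 against 23180). The 5 with intensities from 434 to 1366, the single-gene probe set included, were all lower in the knockout, by -0.49 to -0.13. The dimmer probe sets of Rps6 thus differed more than the bright ones, and the file does not say which part of the message each one covers.

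The 7 subunit genes with no bright probe set of their own (Rpl12, Rpl14, Rpl39, Rps16, Rps25, Rps27 and Rps6) each had a bright one that lists other genes as well, mostly pseudogenes. In the brightest such probe set of each gene the differences ran from -0.08 for Rpl12 to 0.03 for Rpl14, with intensities of at least 8140. Over all bright shared probe sets of a gene the range was wider for Rpl14 and Rps6. For Rpl14 it was -0.12 (5241 against 5754) to 0.05, and for Rps6 -0.14 (1184 against 1311) to 0.0075. By their own probe sets the 6 detected ones had ranged from -0.49 to 0.04. Rps16 was below the floor by its own probe set (5.28 and 5.72) but at 13184 in the knockout and 13723 in the wild type by its brightest shared one (-0.05). Rpl39, a short protein of the peptide exit tunnel, was at 59.1 and 61.2 by its own and at 15820 and 15743 by the shared probe set (0.02). Own and brightest shared probe sets of these genes thus lay far apart in intensity. What share of the shared signal comes from the other listed genes was not tested.

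Over all 110 probe sets that list a ribosomal protein gene with other genes, 103 were detected, and they add 31 gene symbols that the single-gene rule misses. The 81 bright ones had a median of -0.0052 and an SD of 0.05, with extremes of -0.16 and 0.13, much like the members. The lowest was the one shared by Rpl36a and its paralogue Rpl36al (9017 against 10163), and a second probe set of this pair gave -0.11 (4614 against 5022). The highest was shared by Rpl13a and a predicted gene (11975 against 11051), close to the 0.12 of Rpl13a itself. The 22 dim ones ran from -0.41 to 0.88. At 1.2-fold, 2 of them were higher and 5 lower, against 2801 and 2391 of the 18511 dim probe sets of other genes. The lowest was shared by Rpl37 and Rpl37rt (75.8 against 101). The highest was that of Rpl17 and its pseudogenes (562 against 308), while 3 bright probe sets that list Rpl17 lay between -0.03 and 0.06.

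The only member probe set past 1.5-fold belonged to Rpl41, which encodes a very short basic protein. One of 95 detected member probe sets was thus at least 1.5-fold higher, against 3.02% of detected gene probe sets, and none was 1.5-fold lower, against 1.48%. That probe set was at 257 in the knockout and 157 in the wild type (0.72), and a second dim one at 331 and 245 (0.45). Its bright probe sets gave 12808 against 13912 (-0.11) and 16393 against 16510 (-0.00008). Rps24, another Diamond-Blackfan anaemia gene, gave 0.46 in a dim probe set (136 against 99.7), 0.014 in a second dim one at the floor (23.5 against 25.8) and -0.02 to 0.05 in its 4 bright ones. The X-linked Rps4x was at 16790 and 16898 in its bright probe set (0.00092) and at 27.9 and 34.5, near the floor, in the other (-0.30). In Rpl41, Rps24 and Rps4x the probe sets past 1.2-fold were all dim.

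Of the 6 paralogues, 4 were detected, with 1 above 0 and 3 below 0 and a median of -0.04. Rps27l, a paralogue of Rps27 that p53 is known to induce and whose protein binds Mdm2, had 3 detected probe sets, each lower in the knockout. They read 3403 against 4017 (-0.23), 2637 against 3196 (-0.27) and 2644 against 3149 (-0.24). The SD of the difference between bright probe sets of one subunit gene was 0.05, and between bright probe sets of one other gene 0.11 (245 genes). Between probe sets of one gene over the whole array, dim ones included, it was 0.22 (5084 genes). The central 95% of the 345 other gene probe sets in the same doubling bin of intensity lay between -0.37 and 0.42, so each Rps27l value was inside that range. None of these SDs holds the variation between arrays or animals, and the 3 probe sets share a target and are not replicates. Rps27 itself, lower by 0.08 in its own probe set, read 13103 against 13609 (-0.04) in the one shared with Rps27rt.

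Rps4l, a paralogue of Rps4x, was at 106 in the knockout and 77.8 in the wild type (0.46) by its only probe set. Rpl22l1, which Rpl22 is known to repress, was at 5975 and 6325 (-0.07), with Rpl22 itself at 0.03. Rpl7l1 gave -0.02, -0.23 and -0.06 in 3 probe sets with intensities from 77.6 to 523, where the middle one read 269 against 317. Rpl3l, which replaces Rpl3 in striated muscle, and Rpl39l, known from the testis, were below the floor on both arrays (8.05 and 7.67, and 13.3 and 12.8). Rps19bp1, the binding partner, was at 245 and 281 (-0.19).

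Genes linked to disease and to p53 were described apart from the rest of the family. Of 21 listed Diamond-Blackfan anaemia genes, 12 had a probe set of their own, all detected. All 12 lay within 0.1 of 0 on the log2 scale, against 85.7% of the 42 detected subunit genes and 35.3% of all detected genes. The 12 had a median of 0.0064, from Rps27 (-0.08) and Rpl27 (-0.06) to Rpl35 (0.05) and Rps20 (0.07). Of 15 listed genes whose products bind Mdm2, 11 were measured, with a median of -0.0064. Within 0.1 lay 10 of these 11, against the same 85.7% and 35.3%. Rps27l was the exception at -0.23. The remaining ends of that list were Rps27 (-0.08) and Rps25 (0.04), both by dim probe sets, and Rps20 (0.07).

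Ribosome assembly genes, many of whose products act on ribosomal RNA in the nucleolus, were below 0 in 78 of 81 detected members. Their median was -0.22, and 5789 of all 11440 detected genes were below 0. At 1.2-fold, 32 of the 81 were lower and none higher, against 12.0% and 13.0% of all detected genes. At least 1.5-fold lower were 3 of the 81, against 1.57% of all detected genes. The lowest were Rrp12, a factor of subunit export (82.8 against 134, -0.69), and Grwd1, a chaperone-like assembly factor (180 against 280, -0.62), while Nol6 (0.14) and Bms1 (0.02) were highest. Nucleolin (Ncl, 3162 against 3768, -0.24) and fibrillarin (Fbl, 2852 against 3544, -0.30), both abundant nucleolar proteins, were among the lower ones, and nucleophosmin (Npm1) was at -0.03. The median stayed between -0.23 and -0.19 under every alternative setting that was run.

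Mitochondrial ribosomal protein genes, which build the separate ribosome of that organelle, were below 0 in 71 of 76, with a median of -0.16, where 5789 of all 11440 detected genes were below 0. At 1.2-fold, 18 of the 76 were lower and none higher, against 12.0% and 13.0% of all detected genes. Mrps25 (-0.48) and Mrpl55 (-0.44) were lowest and Mrpl45 (0.13) and Mrps23 (0.04) highest. Translation factors had a median of -0.06 over 38 genes, with 12 above 0 and 26 below 0. Only 4 of the 38 were past 1.2-fold lower and none higher, no more than the 12.0% and 13.0% of all detected genes. The cap-binding factor gene Eif4e (446 against 586, -0.38) and its inhibitor gene Eif4ebp1 (652 against 827, -0.33) were lowest, and Eif4b (0.19) and Eef2 (0.17) highest. Eef1a1, whose message carries a TOP motif as those of ribosomal proteins do, was at 16821 and 16819. Fau, which encodes a small subunit protein fused to a ubiquitin-like one and falls outside the symbol rule, was at 9833 and 9561 (0.05). Bright probe sets of other genes, 1300 in all, had a median of -0.05. After loess, which removes a trend with intensity, the medians were -0.19 for assembly genes, -0.12 for mitochondrial ribosomal genes and -0.0076 for translation factors.

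**Figure D4:**
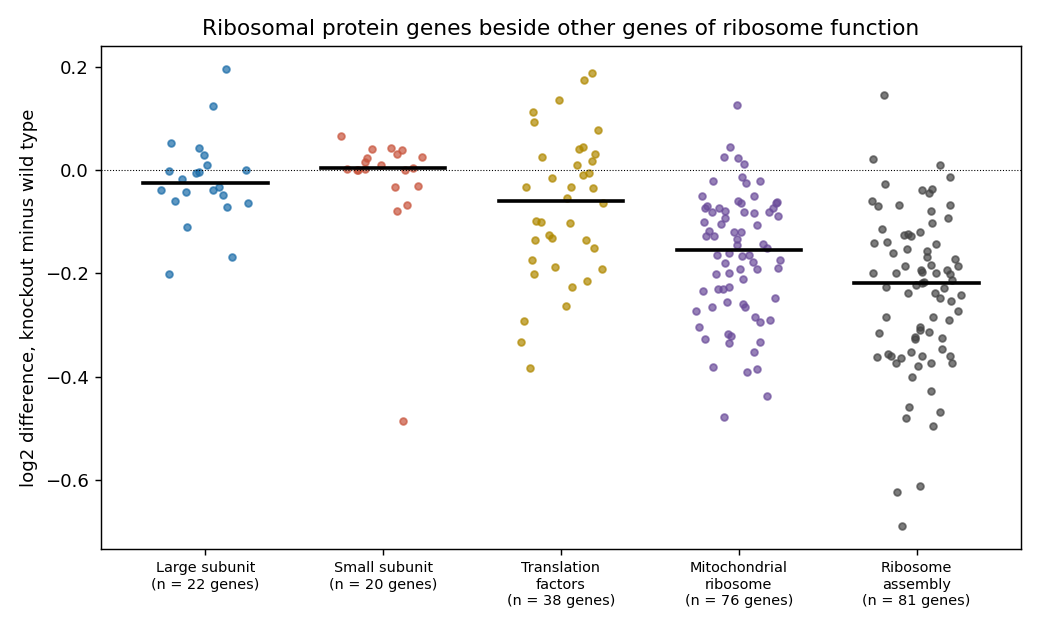
Log2 difference (knockout minus wild type) of each detected gene, with the median as a black bar, for large and small subunit genes, translation factors, mitochondrial ribosomal protein genes and ribosome assembly genes. The subunit genes lie around 0 apart from Rps6 at -0.49, while most mitochondrial ribosomal and assembly genes lie below 0.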

How the data were processed

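The deposited values are linear intensities, 1 for each probe set on each array. Per the submitters' processing notes, MAS5 was used; its version and the scaling of the arrays are not known here. Probe sets were named through the platform annotation, and those listing several genes were kept out of the member set.

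Intensities were set to a floor at each array's median, converted to log2 and centred, which removed a shift of -0.01 (Python 3.11.15, pandas 2.3.3). A gene was represented by its probe set with the highest mean. The folds counted were 1.5 and 1.2. The procedure was tested on simulated data, where 2-fold changes were put into brighter probe sets only. That run did not cover changes in probe sets near the floor or counts at 1.2-fold. Named were all paralogues, the 5 highest and 5 lowest genes of each subunit, members with a probe set past 1.5-fold, the 3 brightest and 3 dimmest genes of each subunit, and the 2 extreme members each way of other lists. Any other name was picked with its values in view. The members and lists were chosen with earlier results of these data known.

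With 1 array per genotype, the arrays' number limits the precision, and no test, pairing or left-out replicate was possible. Alternatives covered centring, normalization, floor, offset, the probe set per gene and its class, and the fold.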

Additional observations from a re-analysis of the deposited data

How the results depend on the processing

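Neither count of subunit genes past 1.5-fold moved from 0 under another centring, normalization, floor, offset, the median over probe sets or 2-fold as the size counted. With plain _at probe sets only, 1 gene was past 1.5-fold higher, Rpl41 at 0.72, because its bright probe sets are of another class. Loess on the mean brought the median of the large subunit to 0.022 and of the small subunit to 0.051, each the widest move from the reported median among these settings. Their difference stayed between -0.030 and -0.010 throughout. Medians of assembly genes ran from -0.23 to -0.19 and of mitochondrial ribosomal genes from -0.17 to -0.11 under the same settings, which were applied to them after seeing the data. Of 205 values of 27 single genes, 18 from 8 genes changed sign, among them Rps20 (0.066 to -0.11 with plain _at probe sets), Rpl22 (0.030 to -0.053 with them), Rpl22l1 (-0.072 to 0.013 after quantile normalization), Rps15 (-0.030 to 0.017) and Rps3 (-0.034 to 0.013), both after loess. All 8 were within 0.1 of 0 as reported. Depth here means signal over the floor: 1 probe set each of Rps10, Rps20 and Rps24 was below it in the knockout, so those differences are bounds.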

Other observations

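The Rps6 kinases, which the member rule leaves out, include Rps6ka3, an X-linked kinase gene of the growth factor pathway. It was lower in the knockout in both detected probe sets, at 910 against 1435 (-0.65) and 195 against 312 (-0.67). Rps6ka5, a nuclear kinase of the same family, gave 0.08 and -0.24 in its 2 detected probe sets, and Rps6kb2 differed by 0.08 at intensities of 43.2 and 41.2. Rps6kc1 was at 30.6 in the knockout and below the floor in the wild type (23.7), so its difference of 0.29 is a bound.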
